A study of Mus musculus with 20 samples.

Results

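The aryl hydrocarbon receptor pathway was examined in the brain through 5 of the 17211 genes of the deposited expression table, chosen by their symbols: the receptor *Ahr*, its partner *Arnt2* and the target genes *Cyp1b1*, *Tiparp* and *Nqo1*. The rule used gene symbols and no threshold on a measured value. The question was whether brain expression of these genes differed between *Winnie* mice and C57BL/6 mice. *Winnie* mice carry a missense mutation of the mucin gene *Muc2* in every cell and develop chronic colitis spontaneously. The C57BL/6 controls came from the same breeding colony, and mice of both genotypes were 14 weeks old. There were 10 brains per genotype, 5 labelled female and 5 labelled male, and the labels name the brain and no region of it, so each value is an average over all the cell types of the tissue.

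The aryl hydrocarbon receptor is a transcription factor of the bHLH-PAS family that waits in the cytoplasm in a complex with HSP90 and co-chaperones such as p23 (*Ptges3*). Ligands such as microbial indoles, kynurenine and dioxin-like pollutants release it to the nucleus, where it binds DNA together with ARNT or its relative ARNT2, which is the form typical of neurons. The pair recognises the xenobiotic response element and switches on genes of xenobiotic metabolism, among them cytochromes P450 of family 1, and genes that restrain the receptor itself, such as *Tiparp* and *Ahrr*. In the brain the pathway is known from astrocytes, microglia and the blood vessels, where *Cyp1b1* is the prominent cytochrome of the family.

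The core letters of the xenobiotic response element were looked for upstream of the target genes. Bases upstream of the RefSeq transcription start (GRCm38.p6), up to the gene's start in GENCODE, are printed for *Cyp1b1* and *Tiparp*, because these are the target genes of the 5 in which the core of the element, GCGTG, was found. Both are written 5′ to 3′ on the strand of the gene, and the capitals mark the core, which lies on the opposite strand in both and is therefore read as CACGC. The *Cyp1b1* sequence is chr17:79715062-79715311 on the minus strand, and the *Tiparp* sequence is chr3:65528197-65528409 on the plus strand.

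Cyp1b1: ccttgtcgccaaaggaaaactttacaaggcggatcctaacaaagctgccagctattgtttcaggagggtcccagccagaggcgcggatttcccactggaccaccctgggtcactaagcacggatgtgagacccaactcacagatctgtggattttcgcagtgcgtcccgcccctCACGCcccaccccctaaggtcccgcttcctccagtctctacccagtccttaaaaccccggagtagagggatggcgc

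Tiparp: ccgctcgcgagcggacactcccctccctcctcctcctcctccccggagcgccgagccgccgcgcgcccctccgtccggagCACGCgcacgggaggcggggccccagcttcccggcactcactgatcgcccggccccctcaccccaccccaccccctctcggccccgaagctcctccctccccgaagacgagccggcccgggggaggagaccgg

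The core lies 76 to 72 bases before the GENCODE start of *Cyp1b1* and 133 to 129 bases before that of *Tiparp*, and each printed sequence ends with the last base before that start. For *Tiparp* the RefSeq start lies 37 bases further on, and those bases were searched but are not printed. Both strands of the whole 250 bases upstream of each RefSeq start were searched, also where fewer are printed, and 28.2% of the 32851 promoters in the RefSeq table held the same 5 letters, so a match is a common event. The longer form TNGCGTG, which contains the core, was in 4.10% of promoters and in neither of these. The core of the antioxidant response element, TGACNNNGC, through which NRF2 acts on *Nqo1* and similar genes, was in 10.2%. The windows of *Arnt2* and *Nqo1* held none of these 3 motifs, which says only that the letters are not in those bases. Of the 5 genes, 4 were matched to the promoter table, all but *Ahr*.

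The expression values are CPM, the reads of a gene divided by all reads assigned to the listed genes of that library and scaled to the same total in each. The libraries held 16540303 to 23923769 reads, with medians of 19176351 in C57BL/6 and 19075334 in *Winnie*, and 1 read was worth 0.0418 to 0.0605 CPM. *Xist* and *Ddx3y*, which tell female from male tissue, went against the labelled sex in 9 libraries, all of them C57BL/6, so sex is given here as labelled and no sample was moved. Libraries were numbered with the C57BL/6 samples first and the *Winnie* samples after them, and an effect of that order cannot be told apart from genotype. Markers of neurons, astrocytes, oligodendrocytes and microglia were present in every library, and the summed levels of each of these lists overlapped between genotypes. Per the labels each sample is 1 mouse, and p-values measure the spread between these mice.

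Per kilobase of exon, the 5 genes differed widely in level, and the order was nearly the same in every brain. *Arnt2* led with 42.6 ± 1.96 CPM per kb (SD over all 20 brains), followed by *Tiparp* at 4.57 ± 1.15, *Nqo1* at 2.72 ± 0.335, *Ahr* at 1.59 ± 0.150 and *Cyp1b1* at 0.700 ± 0.108. *Tiparp* stood above *Nqo1* in 19 of 20 brains, and each of the other neighbours in this order kept its rank in 20 of 20. *Arnt2* was also the partner with more RNA: its level per kb was 6.16 to 10.7 times that of *Arnt*, with a median of 8.84. Which partner the receptor binds in these brains was not measured. *Arnt*, the partner used in most other tissues, had 4.82 ± 0.649 CPM per kb, close to *Tiparp*.

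No change in these 5 genes passed correction over the whole table. With limma on log2(CPM + 0.5), 0 of the 5 had a Benjamini-Hochberg adjusted p under 0.05, where 434 of the 17211 genes (2.52%) did, 261 higher in *Winnie* (1.52%) and 173 lower (1.01%). edgeR and DESeq2, run on the reads recovered from the CPM values, also called 0 of the 5. At an unadjusted p under 0.05 there was 1 of the 5, *Cyp1b1*, against 3030 of all genes (17.6%), of which 1640 were higher (9.53%) and 1390 lower (8.08%). At the threshold of the study's methods, an adjusted p under 0.001 with a minimum size of change, limma and edgeR each called 0 of the 17211 genes (0%) and DESeq2 called 12. All 5 log2 fold changes were above 0, and over all genes 51.0% were, with a median of 0.0022.

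**Figure D1:**
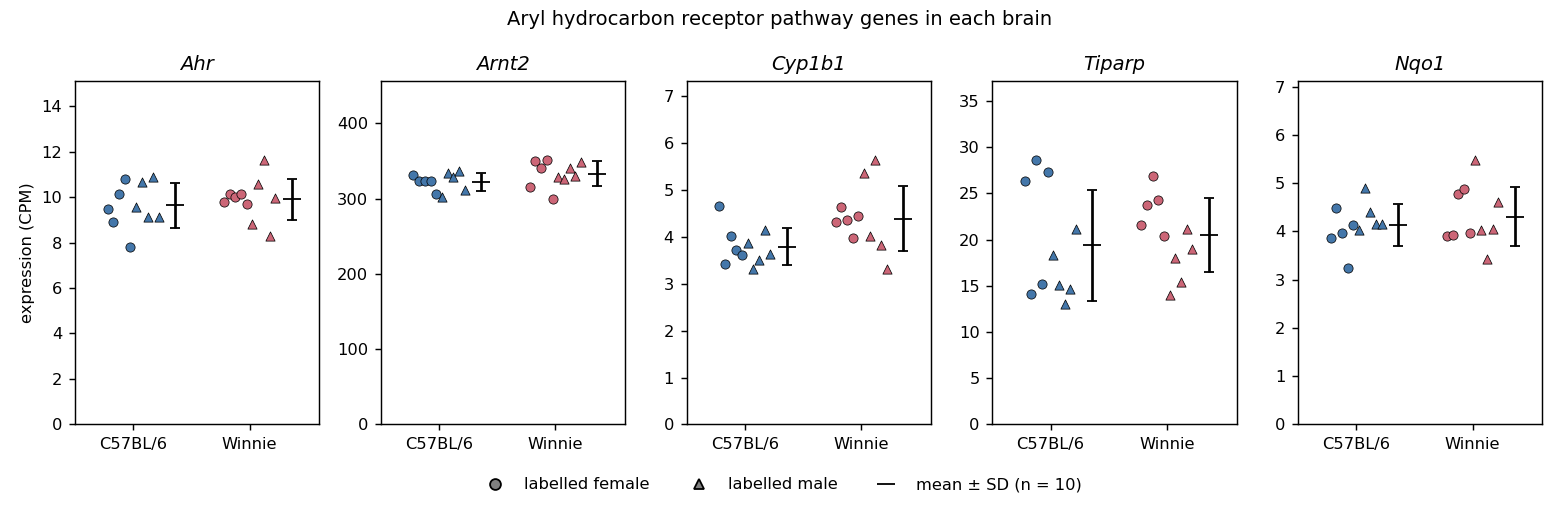
Expression in CPM (vertical axes from 0, each with its own scale) of *Ahr*, *Arnt2*, *Cyp1b1*, *Tiparp* and *Nqo1* in every brain, with C57BL/6 in blue, *Winnie* in red, circles for samples labelled female, triangles for those labelled male, and bars for the mean ± SD of 10 brains. The genotypes overlap in all 5 genes. *Cyp1b1* has the largest share of its *Winnie* brains above the C57BL/6 median (9 of 10), and *Tiparp* has the widest spread within a genotype.

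*Ahr* encodes the receptor (ENSMUSG00000019256, chr12:35497974-35535038, minus strand, GRCm38). In C57BL/6 brains it ranged from 7.79 to 10.9 CPM with a median of 9.51, and in *Winnie* brains from 8.30 to 11.6 with a median of 9.99. The groups covered nearly the same range, with 1 *Winnie* brain above the highest C57BL/6 brain. Means were 9.64 ± 0.982 and 9.91 ± 0.900 CPM (SD, n = 10 each), a log2 fold change of 0.04 (SE 0.0640, 95% CI −0.09 to 0.17) with a limma adjusted p of 0.809. A two-sided permutation test of the means gave p = 0.540. Between 151 and 242 reads lay behind each value, and the counting error expected from them, 7.33% of the mean, was a large part of the coefficient of variation within each group, 10.2% and 9.09%. An exon of the opposite-strand gene *Gm48236* overlaps *Ahr*, and the strandedness of the counting is not given in the sources used here, so reads of the pair cannot be told apart.

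*Arnt2* encodes a partner with which the receptor can bind DNA, and it also serves other bHLH-PAS proteins (ENSMUSG00000015709, chr7:84246278-84410176, minus strand). C57BL/6 brains ranged from 303 to 336 CPM with a median of 323, and *Winnie* brains from 300 to 351 with a median of 335. The ranges overlapped, with 8 of 10 *Winnie* brains above the C57BL/6 median, 5 above the highest C57BL/6 value and 1 below the lowest. Means were 322 ± 11.7 and 333 ± 16.5 CPM, a log2 fold change of 0.05 (SE 0.0330, 95% CI −0.02 to 0.12, limma adjusted p = 0.474, permutation p = 0.1003). This was the steadiest of the 5 genes, with a within-group SD of 0.0636 on the log2 scale, lower than in all but 2.77% of genes, and 5391 to 7734 reads per brain. The interval therefore leaves room only for small differences at this depth and n. An exon of *Gm30873*, on the opposite strand, overlaps it.

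Among the target genes, *Cyp1b1* showed the largest difference in the 5. It encodes a cytochrome P450 that oxidises oestrogens, retinoids and polycyclic hydrocarbons (ENSMUSG00000024087, chr17:79701537-79715061, minus strand, with no overlapping gene). C57BL/6 brains ranged from 3.32 to 4.66 CPM with a median of 3.68, and *Winnie* brains from 3.30 to 5.63 with a median of 4.34. Most *Winnie* brains lay in the upper part of the C57BL/6 range: 9 of 10 were above its median, 2 above its maximum and 1 below its minimum. The mean was 15.8% higher in *Winnie*, 4.39 ± 0.697 against 3.79 ± 0.399 CPM. The log2 fold change was 0.18 (SE 0.0816, 95% CI 0.01 to 0.35), a fold of 1.13 with an interval of 1.01 to 1.27. The limma p was 0.0345 and the adjusted p 0.239, so the difference did not pass, and 2484 genes (14.4%) had a p at least as small. The permutation test of the means, which is not corrected for the number of genes, gave p = 0.0275.

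The evidence for *Cyp1b1* rested on few reads and varied with single brains. Its values stood on 56 to 112 reads, for which the counting error alone is 11.3% of the mean, against a coefficient of variation of 10.5% in C57BL/6 and 15.9% in *Winnie*. Without *Winnie* replicate 8 the log2 fold change was 0.14 (limma p = 0.0841), and without *Winnie* replicate 10 it was 0.22 (p = 0.00962, adjusted p = 0.139). Within labelled sexes the *Winnie* mean was above the C57BL/6 mean in both, at 4.34 ± 0.242 against 3.88 ± 0.483 CPM in samples labelled female and 4.43 ± 1.01 against 3.70 ± 0.320 in those labelled male (n = 5 each). The difference between these effects was 0.06 on the log2 scale (95% CI −0.28 to 0.41, limma adjusted p = 0.974). Because most C57BL/6 labels went against *Xist* and *Ddx3y*, these are contrasts by label only. Without *Ddx3y* RNA the means were 3.70 CPM in C57BL/6 (n = 6) and 4.34 in *Winnie* (n = 5). With it they were 3.92 (n = 4) and 4.43 (n = 5).

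*Nqo1* encodes a quinone reductase that answers both the receptor and NRF2 (ENSMUSG00000003849, chr8:107388225-107403206, minus strand, with no overlapping gene). C57BL/6 brains ranged from 3.25 to 4.90 CPM with a median of 4.14, and *Winnie* brains from 3.42 to 5.48 with a median of 4.03. The genotypes overlapped almost completely, and the order of the medians was opposite to that of the means, 4.14 ± 0.431 and 4.30 ± 0.609 CPM. The log2 fold change was 0.05 (SE 0.0786, 95% CI −0.11 to 0.21, limma adjusted p = 0.810, permutation p = 0.490). With 62 to 101 reads per brain, the counting error of 11.2% was close to the whole coefficient of variation in C57BL/6, 10.4%, and somewhat below the 14.2% in *Winnie*.

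*Tiparp* encodes a mono-ADP-ribosyltransferase that is induced by the receptor and then shuts it down (ENSMUSG00000034640, chr3:65528410-65555518, plus strand, overlapped on the opposite strand by an exon of *4931440P22Rik*). In C57BL/6 brains it ranged from 13.1 to 28.6 CPM with a median of 16.8, and in *Winnie* brains from 14.04 to 26.9 with a median of 20.8. Every *Winnie* brain lay below the highest C57BL/6 brain, while 8 of 10 lay above the C57BL/6 median. Means were 19.38 ± 6.03 and 20.46 ± 4.003 CPM, a log2 fold change of 0.11 (SE 0.159, 95% CI −0.23 to 0.44, limma adjusted p = 0.781, permutation p = 0.643).

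What set *Tiparp* apart from the other 4 genes was its spread between brains of the same genotype. Its within-group SD was 0.361 on the log2 scale against a median of 0.147 over all genes, and 97.0% of genes varied less. Reads were not the limit: 216 to 684 reads gave a counting error of 5.11%, against a coefficient of variation of 31.1% in C57BL/6 and 19.6% in *Winnie*. The C57BL/6 samples labelled female were at 26.4, 14.1, 28.6, 15.2 and 27.3 CPM, and those labelled male at 18.4, 15.04, 13.1, 14.7 and 21.1. The *Winnie* samples labelled female were at 21.6, 23.8, 26.9, 24.3 and 20.4 CPM, and those labelled male at 14.04, 17.98, 15.4, 21.1 and 18.996. Thus 3 C57BL/6 samples formed the top of that genotype, and the *Winnie* samples labelled female lay above nearly all of those labelled male.

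The level of *Tiparp* followed that of the immediate-early genes, which neurons switch on within minutes of being stimulated. With the genotype means removed, the 3 genes whose log2 level was most like it over the 20 brains were *Egr4* (Pearson r = 0.95), *Nr4a1* (0.95) and *Trib1* (0.95), and the first pair are themselves transcription factors of that immediate-early class. The summed CPM of *Fos*, *Egr1*, *Junb*, *Arc*, *Npas4*, *Nr4a1* and *Dusp1* had an r of 0.94 with it, 0.97 within C57BL/6 and 0.87 within *Winnie*. These points share libraries and their normalisation, so the values are a description. That sum ran from 425 to 1809 CPM in C57BL/6 (median 722) and from 383 to 1175 in *Winnie* (median 848), and the genotypes overlapped. With its logarithm as a covariate, added after the data were seen, the *Tiparp* difference between genotypes was 0.14 on the log2 scale (SE 0.0560, 95% CI 0.02 to 0.25) with a limma p of 0.0192 and an adjusted p of 0.170, so it did not pass. What moved the immediate-early genes between brains was not tested.

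**Figure D2:**
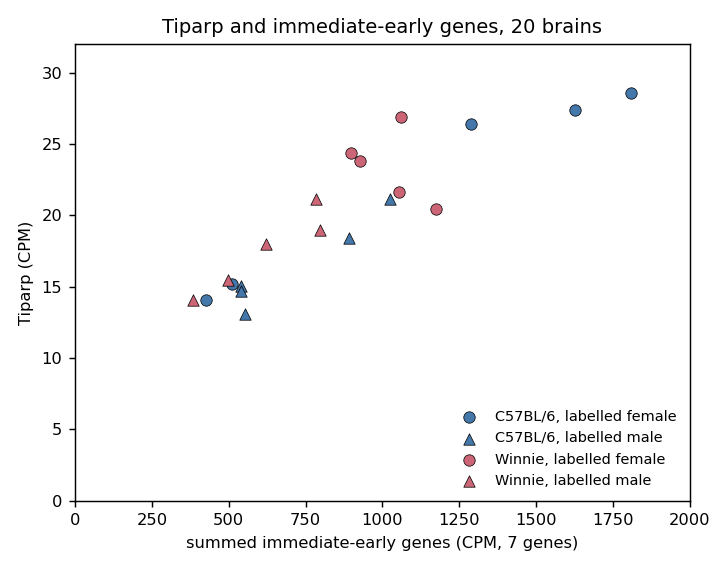
*Tiparp* (vertical axis, CPM) against the summed CPM of 7 immediate-early genes (horizontal axis) in the 20 brains, with both axes linear and from 0, C57BL/6 in blue, *Winnie* in red, circles for samples labelled female and triangles for those labelled male. *Tiparp* runs from 13.1 to 28.6 CPM and is high in the brains with a high sum, in both genotypes.

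Labelled sex and the *Ddx3y* level gave different pictures of *Tiparp*. By label, it had 22.3 ± 7.06 CPM in C57BL/6 samples labelled female and 16.5 ± 3.24 in those labelled male, and 23.4 ± 2.53 and 17.5 ± 2.82 in *Winnie* (n = 5 each). The difference of labelled male minus labelled female over both genotypes was −0.40 on the log2 scale (SE 0.130, limma p = 0.00608), which did not pass correction (adjusted p = 0.637). By *Ddx3y*, C57BL/6 brains with its RNA had 24.1 ± 6.75 CPM (n = 4) and those without it 16.2 ± 2.94 (n = 6), whereas *Winnie* brains with it had 17.5 and those without it 23.4. The genotype difference therefore differed with *Ddx3y* by −0.94 on the log2 scale (SE 0.239, 95% CI −1.44 to −0.44, limma p = 0.000961, adjusted p = 0.537), and with labelled sex by −0.03 (limma p = 0.912). Neither split gave a difference of effects with a limma adjusted p under 0.05 in any of the 5 genes, *Tiparp* included.

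The other 4 genes had less close likenesses. With *Ahr* went *Fam221b* (r = 0.74), *Opcml* (0.74) and *Lclat1* (0.73), and with *Arnt2* went *Trap1* (0.90), *Man1b1* (0.89) and *Mturn* (0.89). *Cyp1b1* was most like *Cers6* (0.77), *Ankrd13c* (0.72) and *Dnajc28* (0.71), and *Nqo1* most like *Grhpr* (0.83), *Thap3* (0.77) and *Paox* (0.73). Between the 5 genes themselves r ran from −0.33 for *Ahr* and *Nqo1* to 0.42 for *Ahr* and *Arnt2*, over the same 20 brains.

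Of 67 genes listed around the receptor, 53 were measured, and 5 of these (9.43%) had a limma adjusted p under 0.05, against 2.52% of all genes. They were 4 higher and 1 lower in *Winnie*. At an unadjusted p under 0.05 there were 26 of 53 (49.1%), 20 higher and 6 lower, against 17.6% of all genes, 9.53% higher and 8.08% lower. The median log2 fold change was 0.05, with 35 genes above 0 and 18 below, where 51.0% of all genes lay above 0. These shares of all genes also stand beside the counts of each single list below. The lists were drawn up with earlier results on these brains known, and their counts carry no test. Cytochromes *Cyp1a1* and *Cyp1a2*, the classic readouts of receptor activity in liver, were among the 14 genes not analysed here.

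**Figure D3:**
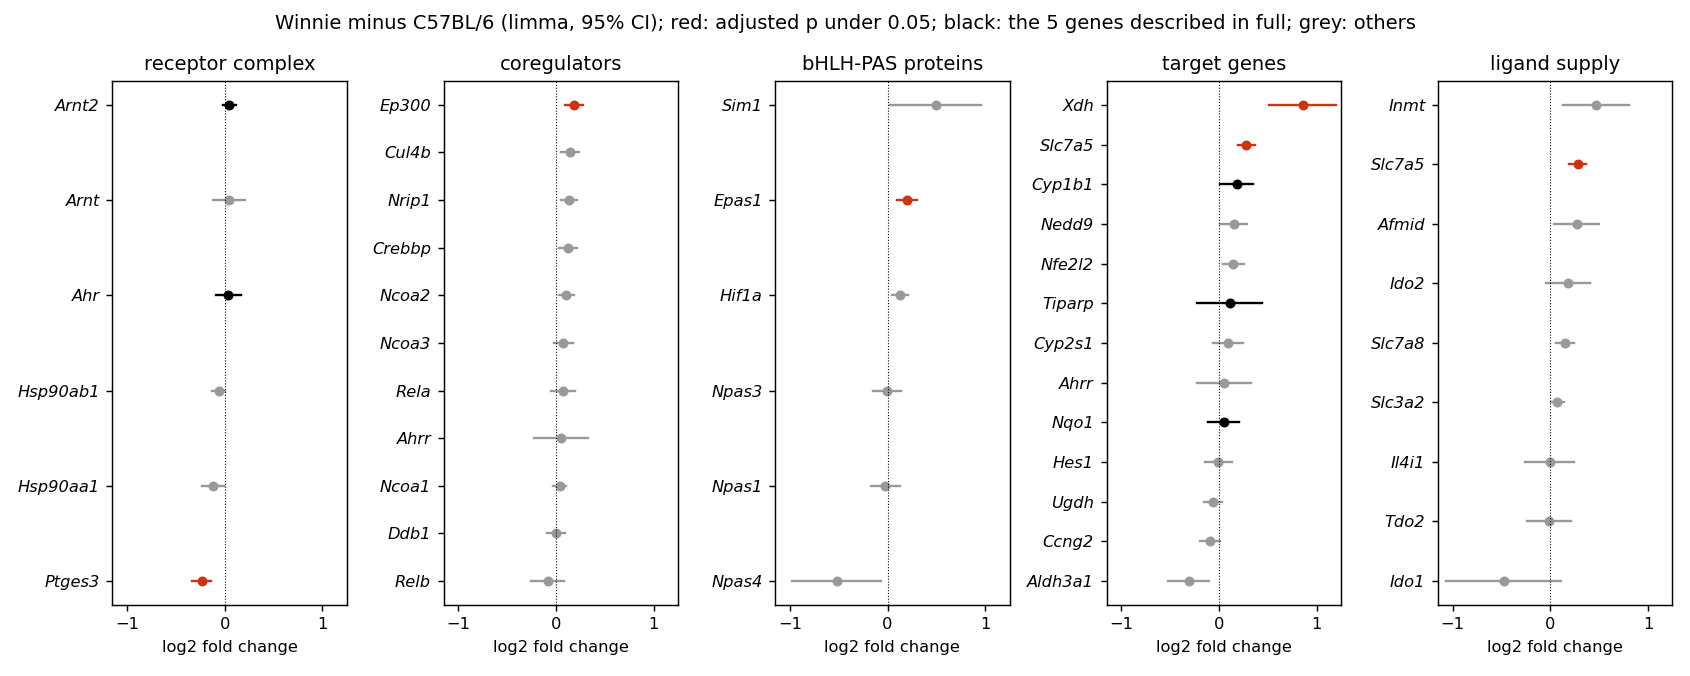
Log2 fold change of *Winnie* minus C57BL/6 (horizontal axes, log2(CPM + 0.5) scale, limma, 95% confidence intervals) for the genes reported here from 5 lists around the receptor, with genes of adjusted p under 0.05 in red, the 5 genes described in full in black unless red, and the rest in grey. *Ptges3* stands lowest in its list and *Xdh* highest in the target genes, while intervals of *Ahr*, *Arnt2*, *Tiparp* and *Nqo1* cross 0.

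In the cytoplasmic complex, 4 of the 7 genes lay below 0 and 1 passed the test. *Ptges3*, which encodes the co-chaperone p23, fell in *Winnie* from 70.6 ± 4.91 to 59.9 ± 5.02 CPM, a log2 fold change of −0.24 (SE 0.0473, limma adjusted p = 0.00866), and no *Winnie* brain reached the C57BL/6 median. C57BL/6 brains ran from 62.8 to 80.4 CPM with a median of 71.1, and *Winnie* brains from 53.6 to 67.0 with a median of 58.9. *Hsp90aa1*, an HSP90 form that is induced by stress, was at −0.12 on the log2 scale (adjusted p = 0.268). The constitutive form *Hsp90ab1* was at −0.06 (0.306). *Arnt*, named here although its p was not under 0.05, was at 0.04 (0.822).

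Among the coactivators, corepressors and degradation factors, 11 of 12 genes lay above 0, against 51.0% of all genes, with a median log2 fold change of 0.09. At the adjusted threshold 1 passed (8.33%, against 2.52% of all genes). *Ep300*, a histone acetyltransferase recruited by many transcription factors, rose from 99.1 ± 8.57 to 112 ± 5.29 CPM (log2 fold change 0.18, SE 0.0436, limma adjusted p = 0.0222), and all 10 *Winnie* brains lay above the C57BL/6 median. The groups still overlapped, from 86.6 to 113 CPM with a median of 96.1 in C57BL/6 and from 103 to 120 with a median of 113 in *Winnie*. At an unadjusted p under 0.05 there were 6 of 12 (50%, against 17.6% of all genes). Another 5 genes were thus under 0.05 without passing. They included the related acetyltransferase *Crebbp* (0.12, adjusted p = 0.142), the coactivator *Ncoa2* (0.10, 0.110), the corepressor *Nrip1* (0.13, 0.0720) and *Cul4b* (0.15, 0.0731), the scaffold of a ubiquitin ligase that the receptor can join. *Ddb1*, of the same ligase, was at 0.00 (0.991). *Ahrr*, the receptor's repressor and itself a target, was added after its value was seen and was at the edge of detection with 0.743 and 0.786 CPM (log2 fold change 0.05, adjusted p = 0.898).

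Of the 6 measured bHLH-PAS proteins that share the partners ARNT and ARNT2, *Epas1* passed. It encodes the hypoxia-inducible factor of blood vessels and astrocytes, and it rose from 185 ± 19.3 to 211 ± 13.5 CPM (log2 fold change 0.20, SE 0.0505, limma adjusted p = 0.0355). C57BL/6 brains ran from 155 to 219 CPM with a median of 182, and *Winnie* brains from 186 to 228 with a median of 212, all 10 above the C57BL/6 median. *Hif1a*, its widely expressed relative, was at 0.13 on the log2 scale (adjusted p = 0.0845). *Sim1*, a factor of hypothalamic neurons, was at 0.49 (0.257) on 1.14 and 1.78 CPM, and the activity-dependent *Npas4* at −0.52 (0.212).

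Of the 13 measured target genes, including *Cyp1b1*, *Tiparp* and *Nqo1*, 2 rose and none fell at the adjusted threshold. That was 15.4%, against 2.52% of all genes, and the median log2 fold change was 0.09. As the list was drawn up with earlier results on these brains known, this share carries no test. *Xdh*, the xanthine dehydrogenase of purine breakdown, rose from 6.25 ± 1.82 to 11.6 ± 2.93 CPM, a log2 fold change of 0.86 (SE 0.163, 95% CI 0.52 to 1.20, limma adjusted p = 0.0112). C57BL/6 brains ran from 3.49 to 9.33 CPM with a median of 5.77, and *Winnie* brains from 7.49 to 15.7 with a median of 11.1. The overlap was small, and all 10 *Winnie* brains lay above the C57BL/6 median. *Nfe2l2*, which encodes NRF2, was at 0.15 (adjusted p = 0.124), the scaffold protein gene *Nedd9* at 0.15 (0.227), the aldehyde dehydrogenase *Aldh3a1* at −0.31 (0.0904) and the cyclin *Ccng2* at −0.09 (0.361). All of these also answer regulators other than the receptor.

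*Slc7a5*, the other target gene that rose, also belongs to the list of ligand supply. It encodes the light chain of the carrier LAT1, which moves tryptophan and kynurenine across the blood-brain barrier. C57BL/6 brains ran from 65.2 to 85.2 CPM with a median of 73.1, and *Winnie* brains from 85.6 to 98.0 with a median of 90.5. The groups did not overlap, which was true of 5 of the 17211 genes (0.0291%). The mean rose from 74.6 ± 6.15 to 90.5 ± 3.85 CPM, a log2 fold change of 0.28 (SE 0.0424, 95% CI 0.19 to 0.37, limma adjusted p = 0.00108). *Slc3a2*, the heavy chain of the same carrier, was at 0.07 (adjusted p = 0.220), and the related carrier *Slc7a8* at 0.15 (0.0707).

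Of the 9 measured genes of ligand supply, only *Slc7a5* passed (11.1%, against 2.52% of all genes). An unadjusted limma p under 0.05 was found for 5 of the 9 (55.6%, against 17.6% of all genes), all higher in *Winnie*. The median log2 fold change was 0.15, and the mean levels of the enzymes in either genotype lay between 0.592 and 2.08 CPM. *Afmid*, which forms kynurenine from formylkynurenine, was at 0.27 on the log2 scale (limma adjusted p = 0.193), and *Inmt*, which methylates indole amines, at 0.47 (0.124). *Ido1*, which opens the tryptophan ring and was chosen here after its value was seen, was at −0.48 (0.402).

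**Figure D4:**
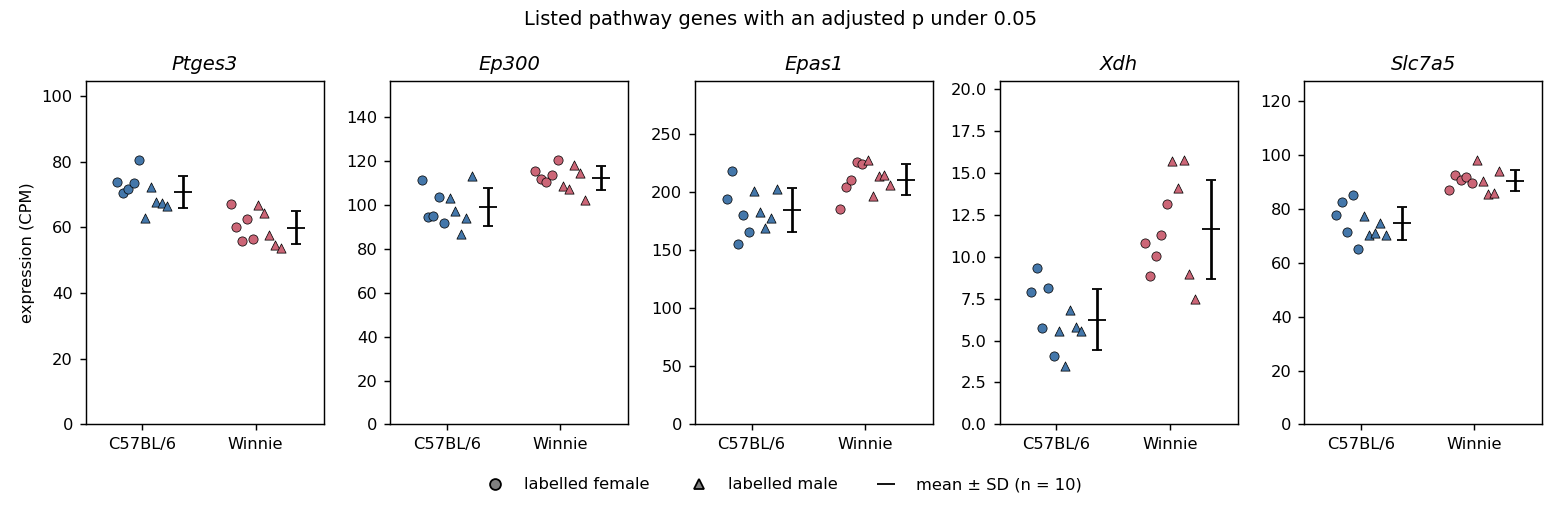
Expression in CPM (vertical axes from 0, each with its own scale) of the listed genes with an adjusted p under 0.05, *Ptges3*, *Ep300*, *Epas1*, *Xdh* and *Slc7a5*, in every brain, with C57BL/6 in blue, *Winnie* in red, circles for samples labelled female, triangles for those labelled male, and bars for the mean ± SD of 10 brains. *Ptges3* is lower and the other 4 are higher in *Winnie*, and the genotypes are fully separate in *Slc7a5* alone.

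*Slc7a5*, *Xdh* and *Epas1* are all expressed in the endothelium of brain vessels, and so the endothelial markers were read beside them. The 8 markers summed to 247 to 336 CPM in C57BL/6 (median 273) and to 303 to 353 in *Winnie* (median 333), with none at 0 in any brain, and the mean of the log2 sum was 0.22 higher in *Winnie*. Of the 8 log2 fold changes 6 were above 0, with a median of 0.09, and at an unadjusted p under 0.05 there were 3 higher and 1 lower. At the adjusted threshold the glucose carrier *Slc2a1* rose (limma adjusted p = 0.00551), the tight junction gene *Cldn5* fell (0.00331), and the other 6 did not pass. *Slc2a1* and *Cldn5* are named because they passed. In mean CPM *Slc2a1* went from 95.6 in C57BL/6 to 130 in *Winnie* and *Cldn5* from 16.4 to 11.7. The higher sum in *Winnie* therefore leans on *Slc2a1* and does not describe the 8 markers alike. Of 7 pericyte markers, which summed to 173 to 213 CPM in C57BL/6 and 179 to 216 in *Winnie*, 1 rose (*Abcc9*, limma adjusted p = 0.0468). The part of these vessel genes in the 3 results was not tested, and in whole tissue more cells of a type cannot be told apart from more RNA per cell. *Cyp1b1*, also a gene of vessels, had r = 0.27 with the endothelial sum over the 20 brains, 0.15 within C57BL/6 and 0.57 within *Winnie*. Its r was −0.09 with the pericyte sum and −0.57 with the microglial sum. Markers of oligodendrocytes (−0.49), choroid plexus (−0.49) and neurons (0.41) gave r of similar size, so no cell type stood out.

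Some of these calls depended on a few brains. *Epas1* lost its call (limma adjusted p over 0.05, up to 0.0806) in 11 of the 20 fits that left out 1 brain, those without C57BL/6 replicate 3, 4, 5, 8 or 9 and those without *Winnie* replicate 3, 4, 5, 6, 8 or 9. Without C57BL/6 replicate 5 its log2 fold change was 0.18. *Ep300* lost its call in 1 such fit, without C57BL/6 replicate 5 (limma adjusted p = 0.0552), and shares an exonic stretch with the gene *Gm23880*. Of the other genes named, *Ddb1*, *Hif1a*, *Nedd9*, *Afmid* and *Gclm* also overlap exons of other genes, which makes the assignment of their reads uncertain. None of the 5 called genes passed when the 9 libraries that went against their labelled sex were left out, which leaves 1 C57BL/6 brain. Their log2 fold changes were then −0.30 for *Ptges3*, 0.22 for *Epas1*, 0.12 for *Ep300*, 0.45 for *Xdh* and 0.09 for *Slc7a5*, each in the same direction as with all brains.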

How the data were processed

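PolyA libraries of brain RNA from 10 C57BL/6 and 10 *Winnie* mice were sequenced by the authors, as the labels give them. The study's methods count 8 and 6 brains and do not say which, so all 20 labelled samples were used. Per the labels, reads were counted per gene on GRCm38 with featureCounts, and the authors deposited CPM. The aligner settings, the strandedness and the filter on low counts are not given in the sources used here. No table column was left unused (0), and no row lacked a name (0).

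Every deposited CPM value was a whole multiple of the value of 1 read (100% of values within 0.1 reads), so reads were recovered. Libraries held 16540303 to 23923769 reads. The floor of 3 reads was at most 0.181 CPM. Counting errors cover counting only. No pair of libraries of 1 group agreed within sampling noise.

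Genes were compared with limma 3.58.1 (R 4.3.3, trend and robust variance) on log2(CPM + 0.5) over all 17211 genes, with Benjamini-Hochberg adjustment. Fold changes are on that scale and understate those of low genes. Single genes were also compared by a two-sided permutation test of mean CPM with 100000 resamples (scipy 1.17.1). The scripts were tested on simulated data. On the recovered reads edgeR 4.0.16 (quasi-likelihood) called 514 genes at an adjusted p under 0.05 and DESeq2 1.42.0 called 977, with 3337 adjusted p left undefined. Other alternatives were a pseudocount of 0.1 or of 1, only genes with a mean CPM of at least 1, TMM, median-ratio and quantile scaling, labelled sex or *Ddx3y* as a covariate, the replicate number as a block, 1 sample left out at a time, the samples against their sex label left out, and the study's threshold (adjusted p under 0.001, absolute log2 fold change from 0.585). The immediate-early covariate and the labelled-sex contrast of *Tiparp* were chosen after seeing the data.

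The 5 genes, the lists around them and the cell type markers were chosen with earlier results of these data known. Named are the 5 genes, listed genes with an unadjusted p under 0.05 or among the 2 highest of their list, and the 3 genes most correlated with each of the 5 among those of mean CPM of at least 1. Of the listed genes, 2 that enter the counts are not reported here. Exon lengths and positions are from GENCODE M21 (17128 of 17211 identifiers matched), and promoters from RefSeq (GRCm38.p6), cut before the GENCODE gene start.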

Additional observations from a re-analysis of the deposited data

Results flagged for a closer look

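The genotype difference of *Tiparp* differed between brains with and without *Ddx3y* RNA, by −0.94 on the log2 scale (limma, interaction term, SE 0.239, p = 0.000961, adjusted p = 0.537). It was marked for a closer look because the unadjusted test of the difference passed 0.05, although the value did not pass correction over all genes. *Tiparp* was higher in the 4 C57BL/6 brains with *Ddx3y* RNA than in the 6 without it, and lower in the 5 *Winnie* brains with it than in the 5 without it. With the labelled sex in place of *Ddx3y* the same term was −0.03 (limma p = 0.912). The sum of the immediate-early genes, which *Tiparp* followed, was split in a similar way. It was 1290, 425, 1809 and 1627 CPM in the C57BL/6 brains with *Ddx3y* RNA and 511 to 1026 in those without it. In *Winnie* it was 383 to 798 CPM with *Ddx3y* RNA and 897 to 1175 without it. Of 70 groups of values tested for a sample far from the rest, 0 had one.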

How the results depend on the processing

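The 5 genes were tried under 166 alternatives in all. In each of these no adjusted p fell under 0.05 (the smallest was 0.139), and 0 of the 5 were called by any tool or threshold. In 164 the direction and the side of the threshold held. *Ahr* turned to −0.12 on the log2 scale without the 9 libraries against their labelled sex, where 1 C57BL/6 brain is left and is assumed to vary like the *Winnie* brains. For *Cyp1b1* the permutation test passed 0.05 (difference 0.599 CPM, p = 0.0275), by its construction without correction. Leaving out 1 brain gave log2 fold changes of 0.01 to 0.06 for *Ahr*, 0.04 to 0.06 for *Arnt2*, 0.14 to 0.22 for *Cyp1b1*, 0.05 to 0.18 for *Tiparp* and 0.01 to 0.08 for *Nqo1*. The 5 called genes of the lists became 9 with DESeq2, 2 with a replicate block, 0 without the 9 libraries, 0 at the study's threshold, and 3 to 7 with 1 brain left out (3 without C57BL/6 replicate 5). With the block *Xdh*, *Ep300* and *Epas1* kept log2 fold changes of 0.86, 0.18 and 0.20 with adjusted p of 0.0530, 0.0612 and 0.0646. Replicate numbers did not pair the samples: 2 of 10 pairs correlated above 0.1 (range −0.29 to 0.15) and 1 sample correlated best with its own number. Over all genes the 434 calls became 227 with the block, 977 with DESeq2, 1 without the 9 libraries and 169 to 694 with 1 brain left out. The cause was not tested. Few reads limit *Cyp1b1* and *Nqo1*.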

Other observations

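*Nqo1* is also a target of NRF2, the regulator of antioxidant defence, and 8 other genes of that programme were measured. None of the 8 (0%) passed at an adjusted p under 0.05 with limma, against 2.52% of all genes. An unadjusted limma p under 0.05 was found for 3 (37.5%), 2 higher and 1 lower, against 17.6% of all genes. *Gclc*, the catalytic subunit of glutathione synthesis, was at 0.11 on the log2 scale (limma adjusted p = 0.113), with 55.8 CPM in C57BL/6 and 60.2 in *Winnie*. *Osgin1*, an oxidative stress-induced growth inhibitor, was at 0.26 (0.250), on 0.401 and 0.595 CPM. *Txnrd1*, the cytosolic thioredoxin reductase, was at −0.09 (0.273). The pair with the highest level, *Srxn1* and *Gclm*, were at 0.01 (0.963) and 0.04 (0.632). The median of the list was 0.03, against 0.0022 over all genes.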
